A study of Mus musculus with 16 samples.

Results

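The transcripts of 8 genes that hold back apoptosis were followed in mouse embryonic stem (ES) cells with and without Cfp1, before and after DNA damage. The genes were taken by name from the 22375 genes counted, and earlier results of these data were known when they were chosen. They are 4 pro-survival members of the Bcl2 family (Bcl2, Bcl2l1, Bcl2l2 and Mcl1) and 4 inhibitor of apoptosis (IAP) genes (Xiap, Birc2, Birc3 and Birc6). All 8 passed the filter on low counts, among 15762 genes that did.

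WT cells were of the E14TG2a line and Cfp1-null cells carried the genotype Cfp1-/-; both lines are given as strain 129/OLA. Each line was left untreated or was treated for 6 hours with doxorubicin, a drug that traps DNA topoisomerase II and breaks DNA. The final concentration was 1 μM by the protocol, although the sample labels write it in mM. All cells grew on gelatin in medium with serum and LIF, a cytokine that keeps ES cells undifferentiated. Each of the 4 groups had 2 biological replicates, each sequenced in 2 technical runs. How the Cfp1-null line was derived, and whether it is 1 clone, was not given in the sources used here, so Cfp1 loss and other differences between the lines cannot be told apart. Nothing states that the replicates were separate cultures, so the p-values measure the spread between these samples.

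Pro-survival Bcl2 proteins bind the effectors Bax and Bak and the BH3-only proteins, and so keep the outer mitochondrial membrane closed. When it opens, cytochrome c and Apaf1 assemble the apoptosome, which activates caspases. IAP proteins act further down: Xiap binds and blocks caspases directly, Birc2 and Birc3 (cIAP1 and cIAP2) are ubiquitin ligases at the TNF receptor that also restrain the alternative NF-kB pathway, and Birc6 is a very large ubiquitin-conjugating enzyme. Mcl1 is a short-lived protein made from a short-lived messenger, whereas Bcl2l1 encodes the stable survival protein Bcl-xL. Cfp1, encoded by Cxxc1, binds unmethylated CpG and brings the Set1 histone H3 lysine 4 methyltransferase to promoters. The comparisons therefore ask how each gene responded to DNA damage in either line, and how the lines differed before and after it.

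The counts that entered the fit came to between 11772320 and 29422711 per biological replicate. In 6 of the 8 pairs of technical runs the counts agreed within counting error, their chi-square divided by its degrees of freedom being 0.998 to 1.05, but it was 9.61 in WT doxorubicin replicate 1 and 42.9 in Cfp1-null doxorubicin replicate 1. In the second run of the latter, X-linked genes kept 4.88% of their first-run counts against 54.7% for chromosomes 1 to 18, and Xiap had 17 counts against 1071, so that run was left out. Cxxc1 had 616 to 1412 counts in the WT libraries and 1 to 4 in the Cfp1-null libraries, and the p53 targets Cdkn1a and Mdm2 rose in both lines (log2 fold changes of 3.33 and 2.69 in WT cells and 2.03 and 2.33 in Cfp1-null cells). All 8 ES cell markers were detected, and their summed level was 3211 to 4390 CPM (counts scaled to a library of 1000000, with TMM factors) in untreated and 1222 to 1732 CPM in treated libraries, without overlap. Dppa5a did not share this fall, at 388 and 286 CPM in untreated and 393 and 254 CPM in treated WT cells. In Cfp1-null cells Dppa5a was at 225 and 249 CPM untreated and 228 and 183.5 CPM treated. The other listed ES cell markers were lower in treated than in untreated libraries of each line. The 6 fibroblast markers summed to 3.55 to 24.7 CPM, the 5 primitive endoderm markers to 7.30 to 31.3, the 4 trophoblast markers to 8.24 to 21.7, the 3 neural markers in the tables to 88.3 to 218, and the 3 blood markers to 7.0 to 21.3, with the globin gene Hbb-b1 at 0 throughout. The fibroblast and primitive endoderm sums were higher in treated than in untreated libraries of both lines, without overlap. Within the fibroblast list Col1a1 was at 2.58 and 4.25 CPM in untreated and 9.67 and 17.6 CPM in treated WT cells, while Col3a1 was at 2.09 and 2.90 CPM in untreated and 1.17 and 1.70 CPM in treated WT cells. Within the primitive endoderm list Pdgfra went from 1.07 and 1.51 to 11.5 and 9.31 CPM in WT cells. In Cfp1-null cells it went from 5.99 and 8.68 to 21.2 and 21.8 CPM. Dab2 was at 4.29 and 8.89 CPM in untreated and 4.23 and 4.58 CPM in treated WT cells. Its Cfp1-null levels were 15.4 and 6.52 CPM untreated and 6.30 and 2.92 CPM treated. Sox17, Gata4 and Gata6 reached at most 1.84 CPM. The part of these markers in the results below was not tested, and in bulk RNA fewer cells of a type and less RNA per cell cannot be told apart.

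In NCBIm37, the build of the count tables, Mcl1 spans 95462643 to 95467099 on the + strand of chromosome 3, Bcl2 108434755 to 108610851 on the - strand of chromosome 1, and Bcl2l1 152593052 to 152657464 on the - strand of chromosome 2. Bcl2l2 spans 55502214 to 55507071 on the + strand of chromosome 14, inside the gene model Gm20521 on the same strand, so reads shared by both were not counted and its level is a lower estimate. Birc2 (7818236 to 7835255) and Birc3 (7848699 to 7873186) lie 13.4 kb apart on the - strand of chromosome 9. They are paralogues, and reads that aligned to both were not counted. Birc6 spans 74927635 to 75103113 on the + strand of chromosome 17 and Xiap 39412856 to 39462833 on the + strand of chromosome X. The counts cover the exons of each gene as a whole, without regard to which isoform they came from.

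RefSeq (GRCm38.p6) gives 13 start sites for the 8 genes. Because Cfp1 reads CpG, the window from 250 bases before to 50 bases after the start is shown for the most abundant gene, the scarcest gene and the neighbouring pair, 5′ to 3′ on the coding strand, with every CG in capitals. For Birc2 it is the window of the upstream of 2 starts.
Mcl1, chr3:95658471-95658770, + strand: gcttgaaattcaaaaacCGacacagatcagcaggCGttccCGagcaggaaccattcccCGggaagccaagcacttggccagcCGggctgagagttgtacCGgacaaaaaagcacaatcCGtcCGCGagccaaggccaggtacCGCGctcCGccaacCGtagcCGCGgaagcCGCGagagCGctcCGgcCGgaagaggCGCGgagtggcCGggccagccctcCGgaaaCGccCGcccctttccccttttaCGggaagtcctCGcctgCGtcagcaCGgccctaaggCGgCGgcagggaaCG
Bcl2, chr1:106714241-106714540, - strand: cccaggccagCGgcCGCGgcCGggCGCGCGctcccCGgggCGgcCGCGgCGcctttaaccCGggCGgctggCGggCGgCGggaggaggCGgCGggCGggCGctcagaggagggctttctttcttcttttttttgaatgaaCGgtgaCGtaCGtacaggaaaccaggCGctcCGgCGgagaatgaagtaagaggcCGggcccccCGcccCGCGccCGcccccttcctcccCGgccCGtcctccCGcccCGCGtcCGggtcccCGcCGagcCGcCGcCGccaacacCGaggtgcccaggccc
Birc2, chr9:7837008-7837307, - strand: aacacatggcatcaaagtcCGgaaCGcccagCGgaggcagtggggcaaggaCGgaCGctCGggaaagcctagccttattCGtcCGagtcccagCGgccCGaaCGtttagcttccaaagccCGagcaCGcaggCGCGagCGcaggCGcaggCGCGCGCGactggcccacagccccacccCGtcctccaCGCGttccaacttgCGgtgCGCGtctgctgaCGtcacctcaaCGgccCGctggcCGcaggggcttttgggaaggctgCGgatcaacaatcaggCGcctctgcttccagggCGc
Birc3, chr9:7873121-7873420, - strand: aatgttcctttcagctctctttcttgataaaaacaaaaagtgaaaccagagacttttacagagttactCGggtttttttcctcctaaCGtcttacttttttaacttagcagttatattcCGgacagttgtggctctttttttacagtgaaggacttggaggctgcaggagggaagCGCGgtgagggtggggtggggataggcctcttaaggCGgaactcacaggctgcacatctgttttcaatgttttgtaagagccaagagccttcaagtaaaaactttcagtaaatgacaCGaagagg

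These windows held 33 CG in Mcl1, 44 in Bcl2 and 34 in Birc2, but 7 in Birc3, against a median of 7 over the 32851 promoter windows of the same length in the RefSeq table. Fewer CG than in Bcl2 were found in 97.8% of all windows, fewer than in Birc2 in 92.3%, fewer than in Mcl1 in 91.4% and fewer than in Birc3 in 47.9%. The neighbouring cIAP genes thus differ in this sequence feature. Across the 13 windows of the 8 genes the number ran from 1, at an inner start of Bcl2l1, to 44. The p53 half-site consensus was found in 1 of the 13 windows, at the downstream Birc2 start, against 8.36% of all windows. The NF-kB consensus, searched on both strands, was found in 1, at a Bcl2l1 start, against 4.51%. A match is a run of letters and not a bound site, and the lack of one covers only these windows.

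Per kilobase of exon, the scale used to compare genes, Mcl1 was the most abundant of the 8 in untreated WT cells, at 251 ± 19.9 CPM per kb (mean ± SD, n = 2 here and below). Birc6 followed at 78.0 ± 2.08, then Birc2 at 30.5 ± 0.960, Xiap at 13.6 ± 0.234 and Bcl2l1 at 8.93 ± 0.616 CPM per kb. Bcl2l2 (2.34 ± 0.0260), Birc3 (1.33 ± 0.0113) and Bcl2 (0.666 ± 0.482 CPM per kb) were scarce. Of the tested genes with a length, 98.9% lay below Mcl1 and 26.7% below Bcl2. In these untreated WT libraries no neighbours in the order overlapped. In treated WT and in untreated Cfp1-null cells Xiap and Bcl2l1 did overlap, at 7.97 to 10.8 against 7.60 to 8.14 CPM per kb and at 8.26 to 12.3 against 9.66 to 11.6 CPM per kb, and their order is not resolved there.

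**Figure D1:**
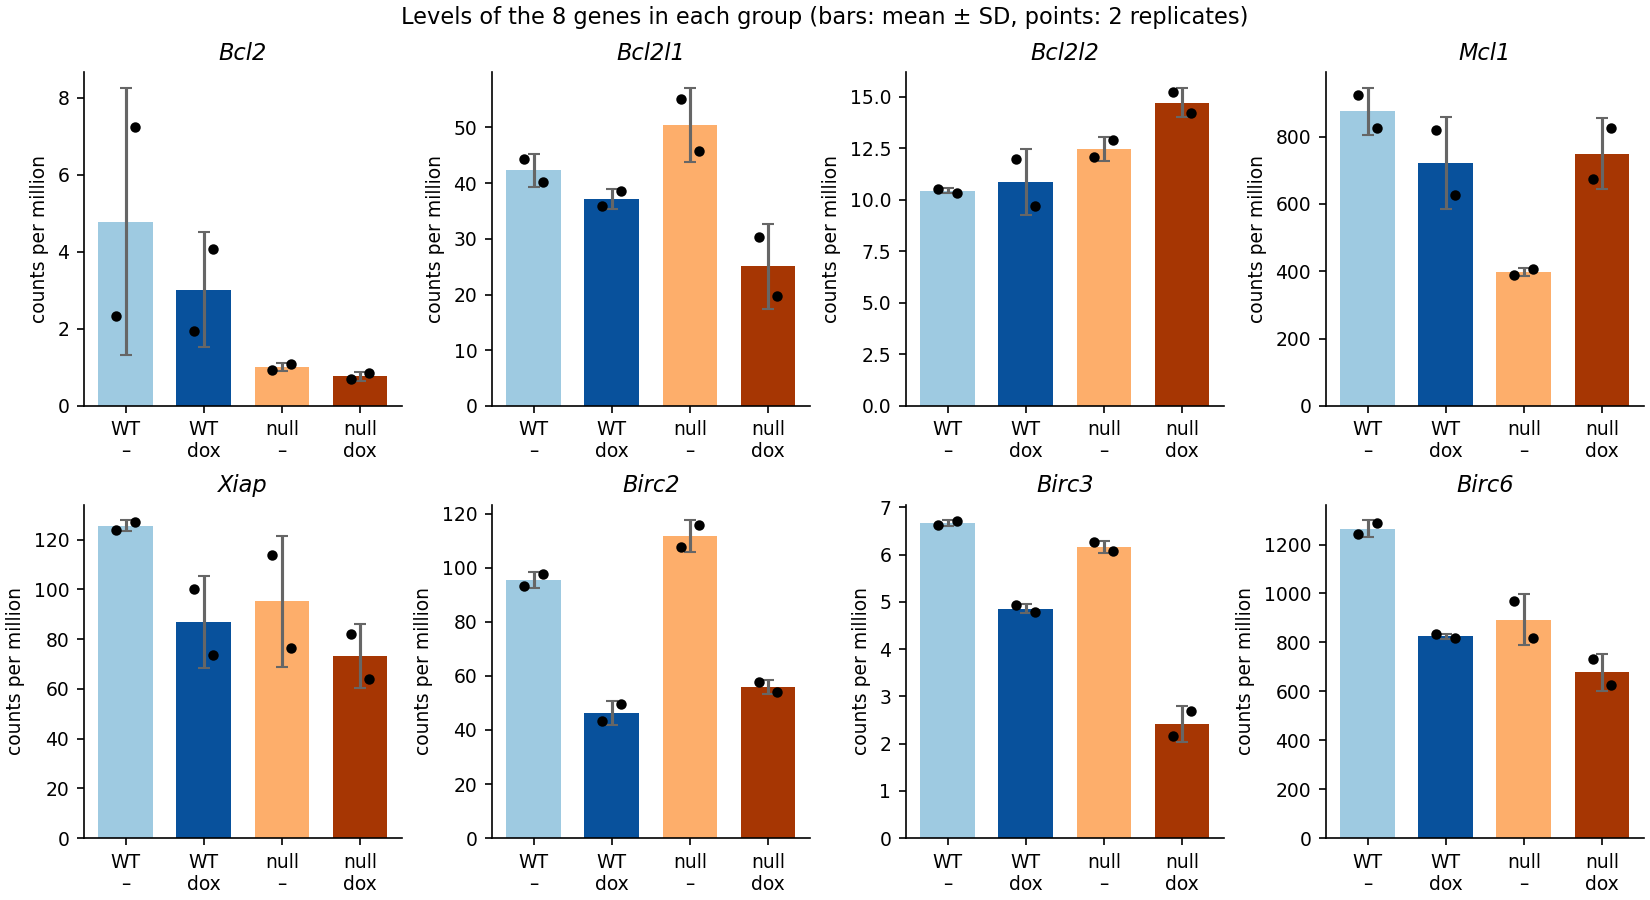
Levels of the 8 genes in CPM (y axis from 0, own scale per gene) in untreated (–) and doxorubicin-treated (dox) WT and Cfp1-null (null) ES cells; bars are means, error bars SD and points the 2 replicates. Mcl1 sat at 389 and 406 in untreated Cfp1-null cells and at 626 or more in the other 6 libraries, whereas Birc2 sat at 57.7 or below in all treated and at 93.3 or above in all untreated libraries.

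Mcl1 was lower in untreated Cfp1-null than in untreated WT cells, and it was the only member that rose with doxorubicin, which it did in Cfp1-null cells. On the CPM scale its level was 924 and 826 in the untreated WT replicates and 819 and 626 after doxorubicin. In Cfp1-null cells it was 389 and 406 untreated and 675 and 825 treated. Untreated Cfp1-null cells thus stood apart from the other 3 groups, which lay close to one another. The log2 difference of untreated Cfp1-null from untreated WT cells was -1.14 (SE 0.158), 2.2-fold lower, with an adjusted p of 8.65e-04 (edgeR's quasi-likelihood test, Benjamini-Hochberg adjustment over all tested genes, as for every adjusted p below). With doxorubicin the lines differed by 0.06 (SE 0.156, adjusted p = 0.819) and their replicates overlapped.

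Within Cfp1-null cells Mcl1 rose 1.89-fold with doxorubicin, a log2 fold change of 0.92 (SE 0.158, adjusted p = 0.00121), and both treated replicates lay above both untreated ones. In WT cells the log2 fold change was -0.28 (SE 0.156, adjusted p = 0.171), with both treated replicates below both untreated ones. It was called without WT doxorubicin replicate 1, at -0.49 (adjusted p = 0.0401), and turned to 0.04 (adjusted p = 0.867) when libraries were scaled by total counts alone. The responses of the lines differed by 1.19 on the log2 scale (SE 0.222, unadjusted p = 3.81e-04), which did not pass the adjustment over all genes (adjusted p = 0.0811). With the replicate number as a block the difference was 1.20 and passed (adjusted p = 0.0105). It also passed with DESeq2's Wald test (adjusted p = 3.82e-04) and with no filter on low counts (adjusted p = 0.00407), and leaving out any 1 library gave differences of 1.01 to 1.39 with adjusted p of 0.0618 to 0.386.

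The technical runs of both treated replicates 1 diverged in Mcl1, as they did in other members. In WT doxorubicin replicate 1 it stood at 806 CPM in the first run and 985 in the second, without scaling factors, and in Cfp1-null doxorubicin replicate 1 it stood at 747 and 1018, ratios of 1.22 and 1.36. In the other 6 pairs the ratio was between 0.961 and 1.005. The same ratio in Cfp1-null doxorubicin replicate 1 was 1.21 for Bcl2l1, 1.36 for Bcl2l2 and 1.20 for Birc2, and in WT doxorubicin replicate 1 it was 1.28 for Xiap, all outside the range of the other 6 pairs. It was largest for Bcl2 in WT doxorubicin replicate 1, at 3.14 against 0.837 to 1.44 in the other 6 pairs. For Birc6 in that replicate it went the other way, at 0.909 against 0.983 to 1.03. The second Cfp1-null run was already left out. Without the second WT run too, the difference in response of Mcl1 was 1.26 (adjusted p = 0.0443).

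Bcl2l1 fell with doxorubicin in Cfp1-null cells, opposite to Mcl1. Its level was 44.4 and 40.2 CPM in untreated and 36.0 and 38.5 CPM in treated WT cells, and 55.1 and 45.7 CPM in untreated and 30.4 and 19.7 CPM in treated Cfp1-null cells. The treated Cfp1-null replicates were the lowest of the 8 libraries. The log2 fold change with doxorubicin was -1.02 in Cfp1-null cells (SE 0.206, adjusted p = 0.00295), 2.02-fold lower, and -0.18 in WT cells (SE 0.202, adjusted p = 0.479). The difference between these responses, -0.83 (SE 0.288), was not called (adjusted p = 0.322).

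Between the lines, Bcl2l1 differed by 0.25 without doxorubicin (SE 0.201, adjusted p = 0.350). With doxorubicin the log2 difference was -0.58 (SE 0.206, adjusted p = 0.0625), and with the replicate block it was called at -0.61 (adjusted p = 0.0127). Leaving out Cfp1-null doxorubicin replicate 1 moved it to -0.93 (adjusted p = 0.0257), and leaving out replicate 2 of that group moved it to -0.29 (adjusted p = 0.384).

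The proportion between the pair shifted accordingly, as a description of single libraries. Per kilobase, Mcl1 stood at 28.3 and 27.9 times Bcl2l1 in untreated WT cells, 30.9 and 22.1 times in treated WT cells, 9.60 and 12.1 times in untreated Cfp1-null cells and 30.2 and 56.9 times in treated Cfp1-null cells. Of the summed per-kilobase level of the 4 Bcl2 genes, Mcl1 made up 94.3 to 96.9% in WT and treated Cfp1-null libraries and 88.5 and 90.2% in untreated Cfp1-null libraries. That sum was 249 and 277 CPM per kb in untreated WT cells and 126 and 129 CPM per kb in untreated Cfp1-null cells.

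**Figure D2:**
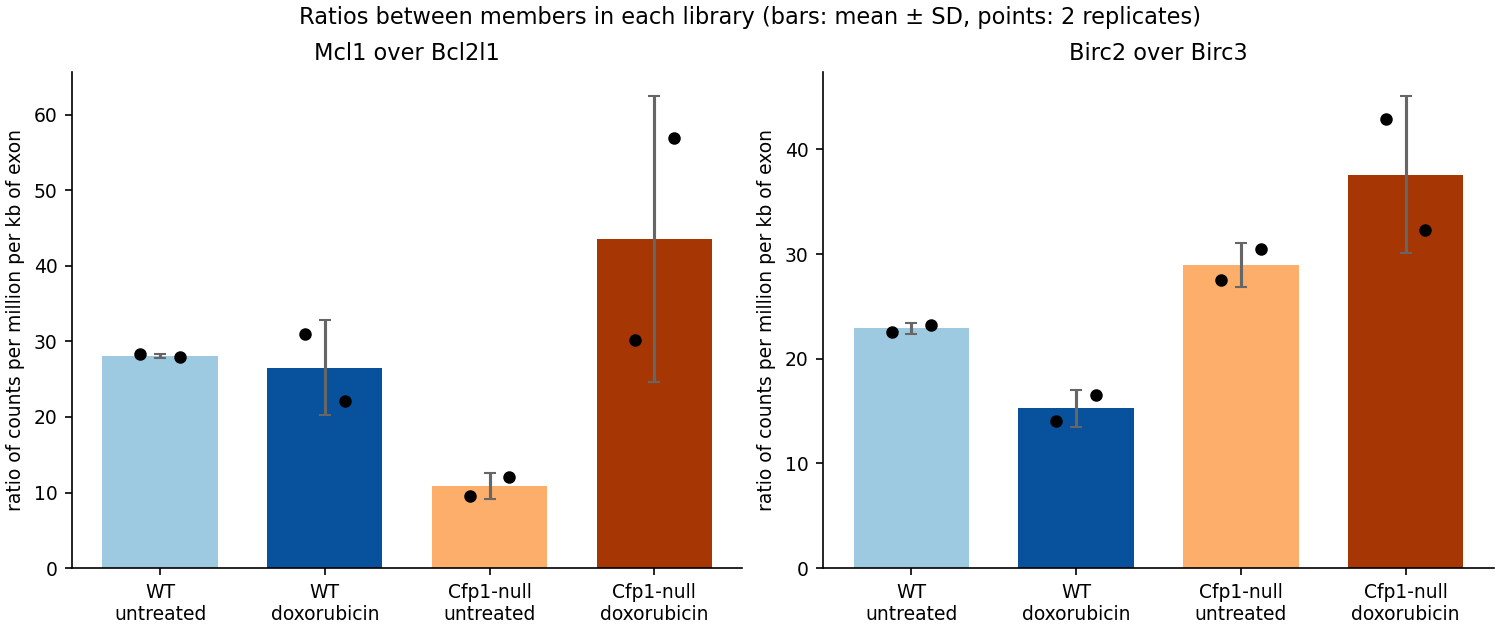
Ratios of CPM per kb of exon in each library (y axes from 0); bars are means, error bars SD and points the 2 replicates. Mcl1 over Bcl2l1 (left) lay at 9.60 and 12.1 in untreated Cfp1-null cells and at 22.1 or above elsewhere, and Birc2 over Birc3 (right) was lowest in treated WT cells, at 14.1 and 16.6.

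Bcl2, the founding member of the family, was lower in Cfp1-null cells in both conditions, from few counts. It had 59 and 149 counts in untreated WT, 31 and 80 in treated WT, 21 and 27 in untreated Cfp1-null and 9 and 18 in treated Cfp1-null libraries. In CPM these were 2.34 and 7.24, 1.96 and 4.07, 0.932 and 1.08, and 0.691 and 0.847. The WT replicates lay far apart, and all 4 stood above all Cfp1-null replicates. The 31 counts of WT doxorubicin replicate 1 were 11 from the first run and 20 from the second.

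The log2 difference of Cfp1-null from WT cells in Bcl2 was -2.23 without doxorubicin (SE 0.565, adjusted p = 0.0136) and -1.95 with it (SE 0.613, adjusted p = 0.0407). Without WT untreated replicate 2, the highest library, the untreated difference was -1.21 and no longer called (adjusted p = 0.111); it was also not called without Cfp1-null untreated replicate 1 (adjusted p = 0.0864) or 2 (adjusted p = 0.0602). The treated difference was lost without any 1 treated library except WT doxorubicin replicate 1, with adjusted p of 0.162 to 0.217, and without either untreated Cfp1-null library (adjusted p = 0.0590 and 0.0561). The treated difference was also not called when the second run of WT doxorubicin replicate 1 was left out, as given below. With doxorubicin, Bcl2 changed by -0.65 in WT cells (SE 0.525, adjusted p = 0.334) and by -0.37 in Cfp1-null cells (SE 0.646, adjusted p = 0.668), and neither was called. Leaving out 1 library moved the WT value between -1.29 and 0.36, and it was called in 1 of these cases, without WT untreated replicate 1 (-1.25, adjusted p = 0.0459).

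Bcl2l2, which encodes Bcl-w, passed the test in no comparison of the main setting; with the block on all 16 runs it was called higher in treated Cfp1-null than in treated WT cells (0.52, adjusted p = 0.0498). It was measured at 10.5 and 10.4 CPM in untreated WT, 11.99 and 9.72 in treated WT, 12.1 and 12.9 in untreated Cfp1-null and 15.2 and 14.2 in treated Cfp1-null cells. Both Cfp1-null groups lay above the WT group of the same treatment, with log2 differences of 0.26 (SE 0.189, adjusted p = 0.311) untreated and 0.44 (SE 0.191, adjusted p = 0.116) treated. With doxorubicin it changed by 0.06 in WT (SE 0.191, adjusted p = 0.829) and 0.24 in Cfp1-null cells (SE 0.189, adjusted p = 0.331).

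Of the IAP genes, Birc2 fell in both lines. Its level was 93.3 and 97.5 CPM in untreated and 43.2 and 49.5 CPM in treated WT cells, and 107 and 116 CPM in untreated and 57.7 and 54.1 CPM in treated Cfp1-null cells. Every treated library lay below every untreated one. The log2 fold change was -1.04 in WT cells (SE 0.124, adjusted p = 1.39e-04), 2.06-fold lower, and -0.998 in Cfp1-null cells (SE 0.124, adjusted p = 1.91e-04). The responses differed by 0.04 (SE 0.174, adjusted p = 0.957). The Cfp1-null libraries lay above the WT libraries by 0.23 untreated (SE 0.122, adjusted p = 0.173) and 0.27 treated (SE 0.124, adjusted p = 0.135), and only with total-count scaling was the first of these called (adjusted p = 0.0239).

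Birc3, the neighbour of Birc2, was far scarcer and fell in Cfp1-null cells. Its level was 6.63 and 6.71 CPM in untreated and 4.92 and 4.78 CPM in treated WT cells, and 6.26 and 6.08 CPM in untreated and 2.15 and 2.68 CPM in treated Cfp1-null cells. The treated groups lay below the untreated groups in both lines. These are small counts, 28 and 57 in the treated Cfp1-null and 78 to 167 in the other libraries.

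Birc3 fell 2.53-fold in Cfp1-null cells, a log2 fold change of -1.34 (SE 0.254, adjusted p = 0.00213), and changed by -0.46 in WT cells (SE 0.242, adjusted p = 0.144). The difference of -0.88 between these (SE 0.350) was not called (adjusted p = 0.386). The log2 difference of treated Cfp1-null from treated WT cells was -0.99 (SE 0.258, adjusted p = 0.0201), while untreated cells differed by -0.11 (SE 0.237, adjusted p = 0.738). The call in treated cells was lost on leaving out WT doxorubicin replicate 1 (adjusted p = 0.0557) or 2 (adjusted p = 0.0586), or Cfp1-null doxorubicin replicate 1 (adjusted p = 0.121) or 2 (adjusted p = 0.0722).

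Birc6, a gene of 175 kb and the second most abundant member, fell with doxorubicin in both lines and was lower in untreated Cfp1-null cells. It was measured at 1241 and 1289 CPM in untreated and 833 and 818 CPM in treated WT cells, and at 967 and 819 CPM in untreated and 730 and 624 CPM in treated Cfp1-null cells. The untreated WT libraries were the highest and did not overlap with any other group. The log2 fold change with doxorubicin was -0.62 in WT cells (SE 0.129, adjusted p = 0.00349) and -0.40 in Cfp1-null cells (SE 0.129, adjusted p = 0.0285), and the difference between them, 0.22 (SE 0.182), was not called (adjusted p = 0.704).

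The log2 difference of Birc6 between the lines was -0.50 without (SE 0.129, adjusted p = 0.0144) and -0.29 with doxorubicin (SE 0.129, adjusted p = 0.128). The Cfp1-null response was not called without Cfp1-null untreated replicate 1 (adjusted p = 0.141) or doxorubicin replicate 2 (adjusted p = 0.201), and the untreated difference was not called without WT untreated replicate 2 (adjusted p = 0.0696) or Cfp1-null untreated replicate 2 (adjusted p = 0.0932). With total-count scaling none of the 3 was called (adjusted p = 0.0576, 0.218 and 0.0639). Beside it, the 2131 tested genes that span at least 100 kb had a median log2 fold change of 0.07 in WT and 0.21 in Cfp1-null cells, against 0.06 and 0.02 over all tested genes.

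Xiap, the only member on chromosome X, was highest in untreated WT cells. It was measured at 124 and 127 CPM in untreated and 100 and 73.8 CPM in treated WT cells, and at 114 and 76.5 CPM in untreated and 82.3 and 64.1 CPM in treated Cfp1-null cells. The untreated WT libraries lay above all others, while the remaining groups overlapped. The log2 fold change with doxorubicin was -0.53 in WT cells (SE 0.214, adjusted p = 0.0645) and -0.38 in Cfp1-null cells (SE 0.215, adjusted p = 0.171), and the untreated lines differed by -0.40 (SE 0.213, adjusted p = 0.170).

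In each group replicate 2 of Xiap lay below replicate 1, except in untreated WT cells. With the replicate block these 3 values became -0.56 (adjusted p = 0.00463), -0.37 (adjusted p = 0.0413) and -0.43 (adjusted p = 0.0234), all called; the last was not called with the block on all 16 runs (-0.42, adjusted p = 0.0721). The WT response was called under most other settings too, for instance with DESeq2 size factors (-0.57, adjusted p = 0.0446). Summing all 16 runs, which brings the depleted run back, moved the Cfp1-null response to -0.68 (adjusted p = 0.0224). The treated lines differed by -0.25 (SE 0.215, adjusted p = 0.414) and the responses by 0.15 (SE 0.303, adjusted p = 0.895).

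**Figure D3:**
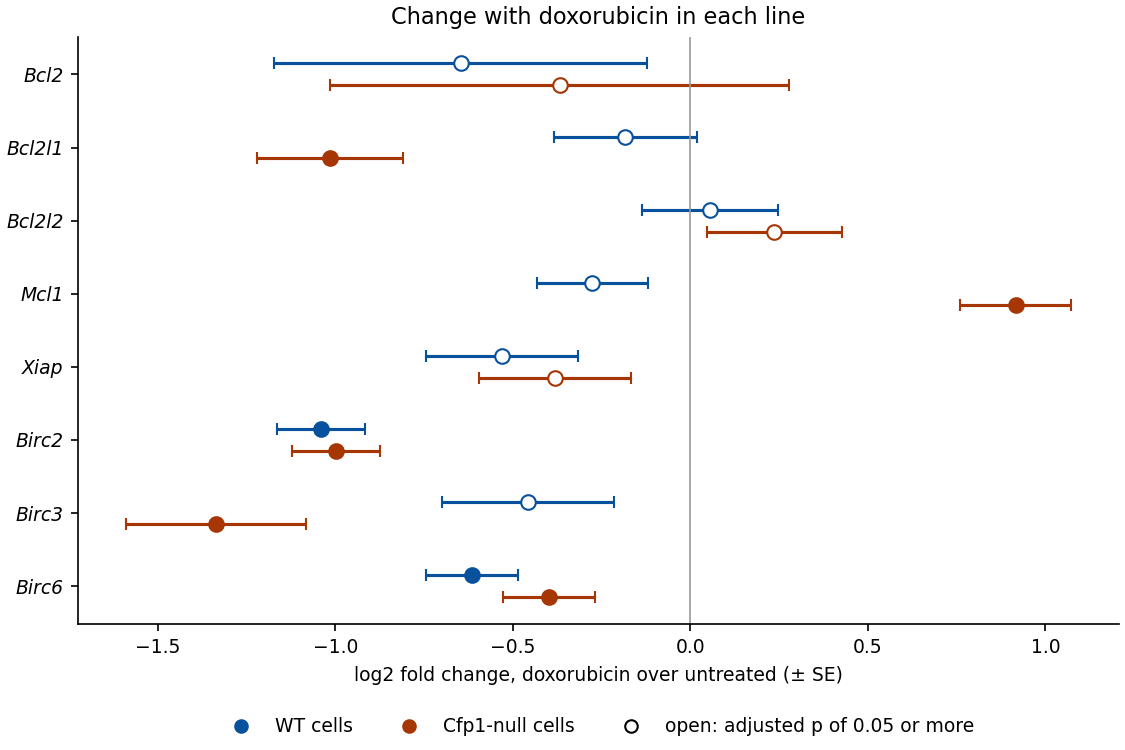
Log2 fold change with doxorubicin (x axis, ± SE) of each gene in WT and Cfp1-null cells; filled points have an adjusted p under 0.05 and open points do not. Mcl1 is the only gene with a filled point to the right of 0, at 0.92 in Cfp1-null cells, and Birc2 lies near -1 in both lines.

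In all, doxorubicin lowered 2 of the 8 genes in WT cells (Birc2 and Birc6), where 22.8% of tested genes were called lower, and raised none, where 27% were called higher. In Cfp1-null cells it lowered 4 (Bcl2l1, Birc2, Birc3 and Birc6), against 21.4% of tested genes, and raised 1 (Mcl1), against 27.7%. The median log2 fold change of the 8 was -0.49 in WT and -0.39 in Cfp1-null cells, against 0.06 and 0.02 over all tested genes. For the difference between the responses, 0.247% of tested genes and none of the 8 were called in the main setting. There 3 of the 8 had an unadjusted p under 0.05, as did 11.5% of tested genes. Some other settings called Mcl1, such as the replicate block, no filter on low counts and DESeq2's Wald test. Without doxorubicin 3 of the 8 (Bcl2, Mcl1 and Birc6) were lower in Cfp1-null cells, against 17.2% of tested genes, and none was higher, against 18.7%. With doxorubicin 2 (Bcl2 and Birc3) were lower, against 12.1%, and none was higher, against 16%. The corresponding medians were -0.26 and -0.27, against 0.01 and 0.02 over all tested genes. These counts and medians are from the main fit, which had no replicate block. With the block, Xiap was also called lower in both responses and between untreated lines, and Bcl2l1 lower between treated lines. The block also called more genes in general, for instance 4266 against 3588 lower in the WT response.

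None of these changes reached both limits that the study set for a regulated gene, namely 2.5-fold or more and 200 or more normalized counts on average, beside the adjusted p. Bcl2 between the lines (4.70-fold untreated, 3.87-fold treated) and Birc3 in the Cfp1-null response (2.53-fold) passed the fold limit but not the count limit. By those limits 7.91% of tested genes were called in WT and 7.51% in Cfp1-null cells, 3.34% between the untreated and 2.70% between the treated lines, and 0 of the 8 genes in any of the 4. At the adjusted p alone the numbers of calls are those given above.

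**Figure D4:**
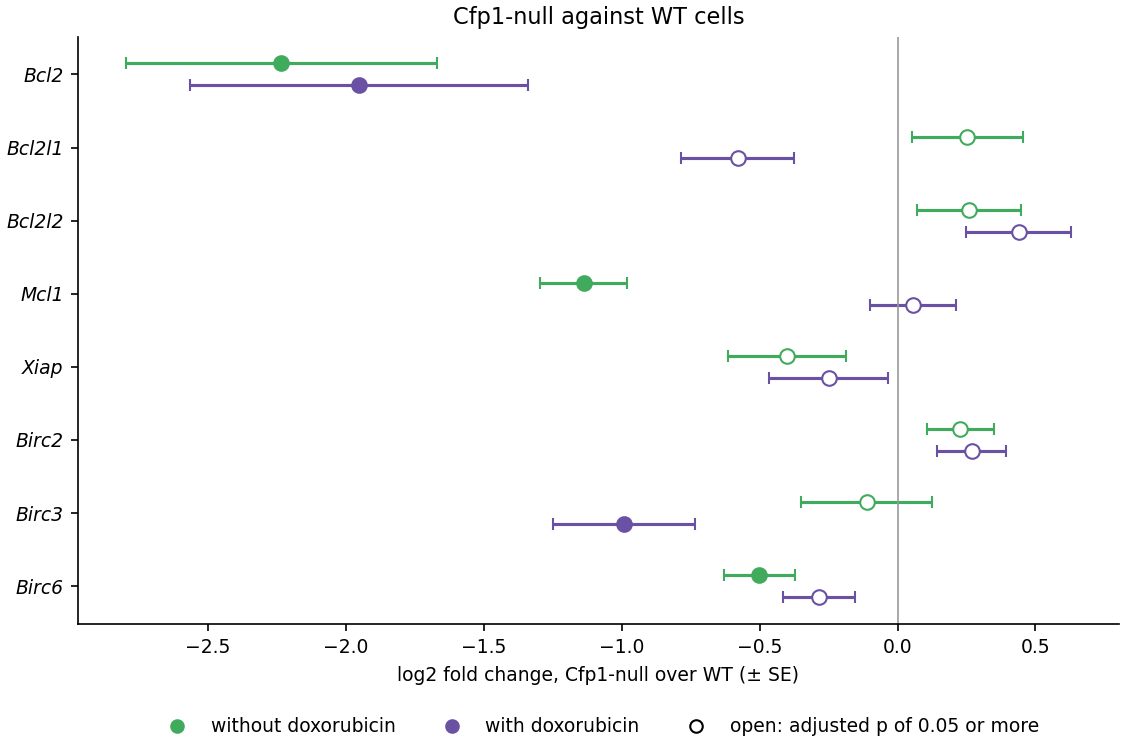
Log2 fold change of Cfp1-null over WT cells (x axis, ± SE) of each gene without and with doxorubicin; filled points have an adjusted p under 0.05 and open points do not. Mcl1 moves from -1.14 untreated to 0.06 treated, whereas Bcl2 lies at -2.23 and -1.95 with wide errors.

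The partners of the 8 genes moved in their own ways. Among 11 BH3-only and effector genes, which the Bcl2 members hold in check, 4 rose and 1 fell in WT cells, where 27% of tested genes were called higher and 22.8% lower, and 4 rose in Cfp1-null cells, where 27.7% were called higher. Pmaip1 (Noxa), the BH3-only protein that binds Mcl1, rose in both lines, with log2 fold changes of 2.80 (adjusted p = 1.61e-05) and 3.04 (adjusted p = 1.46e-05). It was lower in Cfp1-null cells before and after treatment, by log2 differences of -2.13 (adjusted p = 2.40e-04) and -1.88 (adjusted p = 5.84e-04). Bik rose by 1.37 in WT cells (adjusted p = 0.00957) and 3.91 in Cfp1-null cells (adjusted p = 1.68e-04), and Bbc3 (Puma) by 1.52 (adjusted p = 3.31e-04) and 1.13 (adjusted p = 0.00183). Bik was scarce, at 1.07 and 1.31 CPM in untreated and 3.09 and 3.05 CPM in treated WT cells. In Cfp1-null cells it was at 0.0888 and 0.160 CPM untreated and 2.15 and 1.84 CPM treated. The difference between its responses was not called (adjusted p = 0.155). Without doxorubicin 4 of the 11 were lower in Cfp1-null cells, against 17.2% of tested genes, and none was higher, and with it 3 were lower, against 12.1%.

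Further pro-survival genes mostly did not pass the filter on low counts, which does not by itself show that they were silent. Of Bcl2a1a, Bcl2a1b, Bcl2a1d and Bcl2l10, only Bcl2l10 passed the filter, and it rose in both lines, by 2.54 (adjusted p = 0.00314) and 1.55 (adjusted p = 0.0157) on the log2 scale. Its levels were low, 0.238 and 0.194 CPM in untreated and 1.64 and 0.967 CPM in treated WT cells. In Cfp1-null cells they were 0.621 and 0.680 CPM untreated and 1.54 and 2.26 CPM treated. Of 6 other genes with the BIR domain that defines the IAPs, 5 were tested. Birc7 (livin) rose in both lines, by 2.07 (adjusted p = 0.00601) and 2.05 (adjusted p = 0.00210). It too was low, at 0.278 and 0.243 CPM in untreated and 1.01 and 1.22 CPM in treated WT cells. In Cfp1-null cells it was at 0.799 and 0.920 CPM untreated and 2.69 and 4.42 CPM treated. Birc5 (survivin), which acts in mitosis, fell in Cfp1-null cells, with a log2 fold change of -0.48 (adjusted p = 0.00492), and changed by -0.08 in WT cells (adjusted p = 0.587). The difference between these responses, -0.41, was not called (adjusted p = 0.354). Untreated Cfp1-null cells started higher than untreated WT cells, by 0.55 (adjusted p = 0.00417). Treated levels of Birc5 were 198 and 178 CPM in Cfp1-null and 170 and 170 CPM in WT cells. Naip1 was at 1.82 and 1.24 CPM in untreated Cfp1-null cells and at 0 to 0.471 CPM in all other libraries, so it passed the filter only through the group where it was high, and no test is given. Naip genes are near-identical copies, so their counts are uncertain.

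Among the 4 antagonists of IAPs, 2 rose in each line, against 27% of tested genes in WT and 27.7% in Cfp1-null cells. Xaf1, which binds Xiap, rose by 4.04 in WT (adjusted p = 1.79e-06) and 2.22 in Cfp1-null cells (adjusted p = 1.32e-05). Its responses differed between the lines by -1.82 (adjusted p = 0.0275), but no gene was called for this difference without Cfp1-null untreated replicate 1 or either treated Cfp1-null replicate. Xaf1 was already higher in untreated Cfp1-null cells, by 2.24 (adjusted p = 7.13e-05). Diablo (Smac), released from mitochondria to displace IAPs, rose by 0.38 (adjusted p = 0.0179) and 0.33 (adjusted p = 0.0330), and Htra2 was at -0.42 (adjusted p = 0.110) and -0.38 (adjusted p = 0.145). Apaf1, the scaffold of the apoptosome, rose by 2.94 in WT (adjusted p = 2.76e-06) and 2.83 in Cfp1-null cells (adjusted p = 4.08e-06).

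Of the 7 genes that work with Birc2 and Birc3 at the TNF receptor, Map3k14 and Traf3 rose in each line, where 27% and 27.7% of tested genes were called higher. In Cfp1-null cells 1 of the 7 fell, against 21.4% of tested genes. Map3k14, the NF-kB inducing kinase whose turnover the cIAPs and Traf3 promote, rose by 3.10 (adjusted p = 2.30e-05) and 3.04 (adjusted p = 3.28e-05). Traf3 rose by 1.16 (adjusted p = 5.56e-04) and 0.82 (adjusted p = 0.00409). Traf1 was at 0.194 to 0.833 CPM in untreated and 3.26 to 4.23 CPM in treated libraries. It thus passed the filter through the treated groups, where it was high, so no test is given for it and it is not counted as a rise. Without doxorubicin 4 of the 7 were lower in Cfp1-null cells, against 17.2% of tested genes, and with it 5, against 12.1%. Of 6 NF-kB genes, 3 rose in WT cells, against 27% of tested genes, and 1 in Cfp1-null cells, against 27.7%, and the difference between the responses was called for none of them. Nfkb2, the precursor in the alternative pathway, rose by 1.42 (adjusted p = 0.00149) and 1.41 (adjusted p = 0.00176). Nfkbia rose by 0.91 in WT cells (adjusted p = 0.00692) and was at 0.33 in Cfp1-null cells (adjusted p = 0.244), and Rela rose by 0.56 (adjusted p = 0.0308) and was at -0.17 (adjusted p = 0.475).

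Of 4 genes known for Mcl1 protein turnover, 1 rose and 2 fell in WT cells, and 1 rose and 1 fell in Cfp1-null cells. Over all tested genes the shares were 27% higher and 22.8% lower in WT and 27.7% higher and 21.4% lower in Cfp1-null cells. Fbxw7, a ligase subunit that marks Mcl1 for degradation, rose by 1.39 (adjusted p = 1.67e-05) and 1.03 (adjusted p = 8.11e-05). Usp9x, which removes ubiquitin from Mcl1, fell, with log2 fold changes of -1.08 (adjusted p = 0.00128) and -0.71 (adjusted p = 0.0120). Huwe1, another Mcl1 ligase, fell in WT cells, at -0.44 (adjusted p = 0.0213), and was at -0.27 in Cfp1-null cells (adjusted p = 0.125). These are transcript levels, and protein was not measured in these files.

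The genes whose pattern over the 8 biological replicates was most like that of each member were found by Pearson's r of log2 CPM, among genes that averaged 200 normalized counts or more. As a description, with libraries and scaling shared by all points, these were Vav2 (r = 0.974) and Vps8 (0.970) for Mcl1, Vps37a (0.994) and She (0.972) for Bcl2l1, Med14 (0.985) and Clic1 (0.984) for Bcl2, and Hexdc (0.968) and Zcchc4 (0.958) for Bcl2l2. For the IAP genes they were Rrp8 (0.999) and Dusp12 (0.995) for Birc2, Itfg2 (0.994) and Hjurp (0.976) for Birc3, Prdm4 (0.997) and Cnot1 (0.997) for Birc6, and Deptor (0.988) and Diap2 (0.983) for Xiap. Neither of the neighbouring cIAP genes shared its nearest genes with the other. Their per-kilobase ratio, Birc2 over Birc3, was 22.5 and 23.3 in untreated WT, 14.1 and 16.6 in treated WT, 27.5 and 30.5 in untreated Cfp1-null and 42.9 and 32.3 in treated Cfp1-null libraries.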

How the data were processed

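RNA-Seq of 16 technical runs (2 of each biological replicate) was analysed. The authors mapped paired-end 75 bp reads of stranded, rRNA-depleted libraries to NCBIm37 with STAR (2.2.1 in the submitters' processing notes) and counted sense reads over exons of Ensembl release 67 with HTSeq-count in union mode; they deposited raw counts per run. The authors also deposited a signal per replicate, counts of both runs scaled by a size factor from DESeq, used here only for the minimum of 200 normalized counts.

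Samples were grouped by their labels. Runs were summed per replicate, without the second run of Cfp1-null doxorubicin replicate 1. Fold changes came from edgeR 4.0.16 in R 4.3.3 (filterByExpr, TMM, 1 coefficient per group, quasi-likelihood tests, Benjamini-Hochberg adjustment over all tested genes), with calls at an adjusted p under 0.05 and SEs derived from the test statistic. Levels are CPM with TMM, divided by exon lengths of Ensembl release 65 models where genes are compared. DESeq2 1.42.0 was an alternative, and the scripts were tested on simulated data.

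The 8 genes, the lists and the left-out run were chosen with earlier results of these data known. All 8 are named, with the 2 genes of highest r for each and up to 3 genes of each list with the smallest adjusted p in either response; of the list of the apoptosome and caspases, Apaf1 is given and the rest is not reported here. Replicate numbers were tried as a block, because same-numbered replicates deviated together in all 6 pairs of groups (r = 0.133 to 0.453 across genes). Both replicates of a group deviate equally from their mean, so the 6 pairs are not independent and pairing is not established. The main fit had no block for such a pairing, and blocked values stand beside the results they change.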

Additional observations from a re-analysis of the deposited data

Results flagged for a closer look

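Mcl1 drew attention because its replicates separated in opposite directions in the lines, with every treated WT replicate below and every treated Cfp1-null replicate above the untreated replicates of its line. The WT change itself was not called (-0.28, adjusted p = 0.171) and was 0.038 (adjusted p = 0.867) with scaling by total counts alone. The responses differed by 1.19 on the log2 scale (Cfp1-null minus WT). The edgeR test of that difference gave an adjusted p of 0.0811 in the main setting and of 0.0105 with the replicate block, as given above.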

How the results depend on the processing

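Beside the main setting, the counts of calls and the medians of the 8 genes were recomputed under other settings. Scaling by total counts alone moved the median of all tested genes from 0.06 to 0.37 in the WT response, from 0.02 to 0.22 in the Cfp1-null response and from 0.01 to 0.20 between untreated lines, so that it called 5865 genes higher and 1947 lower in the WT response (4248 and 3588 in the main setting), 5216 and 2128 in the Cfp1-null response (4361 and 3373), 4040 and 1701 between untreated (2946 and 2705) and 2951 and 1451 between treated lines (2518 and 1900). Under it 1 of the 8 genes was called lower in the WT response, 1 was called higher in untreated Cfp1-null cells, the medians of the 8 became -0.18 in both responses and -0.18 between treated lines, -0.066 between untreated lines (-0.26 in the main setting) and 0.061 in the response difference (0.17), and uncalled values changed sign for Bcl2l1 (0.13) and Mcl1 (0.038) in the WT response, Birc2 (-0.063) in the response difference and Birc3 (0.08) between untreated lines. Summing all 16 runs gave medians of -0.54 in the Cfp1-null response and -0.41 between treated lines, and -0.15 for the response difference of Xiap. First technical runs alone left 1 call lower between treated lines with a median of -0.23, as did leaving out the second runs of both treated replicates 1 (1 call, median -0.23), which also called 1 gene higher in the response difference; in both, the call lost was Bcl2 (adjusted p = 0.113 and 0.0882). The response difference called 1 gene higher, Mcl1, with DESeq2's Wald test, with no filter on low counts, with the replicate block and with the block on all 16 runs; over all genes it called 39 in the main setting and 247, 228, 352 and 243 in these. The replicate block on all 16 runs gave medians of -0.53 in the Cfp1-null response and -0.41 between treated lines, where it called 1 gene higher (Bcl2l2) and 4 lower, and -0.11 for the response difference of Xiap. The replicate block alone changed no call of the 8 other than those printed beside the results. With the limits of the study no gene was called, 0 in each comparison.

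Leaving out 1 replicate at a time, with the lone sample of a group assumed to vary like the others, gave these lowest and highest values: 2 to 4 genes called lower and medians of -0.51 to -0.39 in the WT response, 3 to 5 and -0.59 to -0.39 in the Cfp1-null response, 1 to 3 and -0.35 to -0.12 between untreated lines, 0 to 2 and -0.43 to -0.13 between treated lines, and a median of 0.04 to 0.17 in the response difference, where all genes gave 0 to 10 calls higher and 0 to 15 lower. Values not called in the main setting that crossed 0 ran from -1.29 to 0.36 (Bcl2, called without WT untreated replicate 1) and -0.11 to 0.19 (Bcl2l2) in the WT response, from -0.78 to 0.91 (Bcl2), -0.12 to 0.45 (Xiap) and -0.057 to 0.14 (Birc2) in the response difference, and from -0.13 to 0.25 (Mcl1) between treated lines. Of the 12 calls in single genes, those for Birc2 in both responses, for Bcl2l1, Mcl1 and Birc3 in the Cfp1-null response and for Mcl1 between untreated lines held under every setting tried but the limits of the study. Causes of these shifts were not tested. Bcl2 and Birc3 had the fewest counts of the 8, with 9 to 167 per library.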
